A study of Mus musculus with 5 samples.

Results

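Notch signalling was followed through 10 genes in the hearts of newborn Charme mutant mice: the receptors Notch1, Notch2 and Notch4, the ligands Jag1, Jag2 and Dll4, the DNA-binding protein Rbpj, and the target genes Hey1, Hey2 and Hes1. They were chosen by symbol, with the receptor Notch3 set aside, and all 10 of the 49671 genes in the deposited count table passed the filter on low counts that left 14880 genes for testing. RNA with a polyA tail was sequenced from whole hearts of C57BL6/J mice at postnatal day 2. The 3 CharmeWT libraries were pools of 9 hearts and the 2 CharmeKO libraries pools of 3 hearts, so genotype and the number of hearts per pool cannot be told apart. CharmeKO mice carry a PolyA signal inserted in the locus of the long noncoding RNA Charme. Every CharmeKO value rests on 2 pools, and the p-values of the fits rest on the spread between pools within both genotypes.

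In Notch signalling, a ligand of the Jagged or Delta-like family on one cell binds a Notch receptor on its neighbour, and cleavage by ADAM10 and then by gamma-secretase frees the receptor's intracellular domain. That domain enters the nucleus and joins RBPJ and a Mastermind protein on DNA, which turns RBPJ from a repressor into an activator of Hes and Hey genes. In the heart the pathway acts in endocardium and coronary endothelium, where Dll4, Jag1, Notch1 and Notch4 are known from arterial vessels, in valve formation and trabeculation, and Hey2 is also known as a gene of the compact ventricular myocardium.

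The sequences shown are a promoter window of Hey2, a target gene of RBPJ, and one of Rbpj itself. They were taken from RefSeq on GRCm38.p6, and each runs from 250 bases before to 50 bases after an annotated start. Windows were found for 8 of the 10 genes, and not for Hes1 and Hey1. RBPJ binds a core TGGGAA, which was searched on both strands (TTCCCA on the other). The core was present in the windows of 2 of the 8 genes, Hey2 and Rbpj, and in 25.6% of all 32851 windows. Both are printed 5′ to 3′ on the strand of the gene, with the matches in capitals. The Rbpj window was added to the display after the search.

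Hey2, chr10:30842734-30843033, minus strand: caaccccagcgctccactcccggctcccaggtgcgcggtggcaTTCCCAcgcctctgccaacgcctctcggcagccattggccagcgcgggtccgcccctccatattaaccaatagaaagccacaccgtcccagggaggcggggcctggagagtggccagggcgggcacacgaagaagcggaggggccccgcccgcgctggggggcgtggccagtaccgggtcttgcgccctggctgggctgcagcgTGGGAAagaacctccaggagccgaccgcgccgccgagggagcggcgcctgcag
Rbpj, chr5:53590096-53590395, plus strand: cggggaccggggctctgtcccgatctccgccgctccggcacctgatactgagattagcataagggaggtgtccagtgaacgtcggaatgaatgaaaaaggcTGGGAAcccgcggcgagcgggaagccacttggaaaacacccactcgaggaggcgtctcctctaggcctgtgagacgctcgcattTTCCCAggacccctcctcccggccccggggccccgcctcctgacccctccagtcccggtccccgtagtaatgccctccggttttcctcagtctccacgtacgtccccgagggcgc

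Counted with 0 as the first transcribed base, the Hey2 matches began at -207 on the opposite strand and at -3 on the gene's own strand. The matches in the printed Rbpj window began at -149 and -65. Rbpj had another window, chr5:53590236-53590535, which overlaps the printed one and held 1 match, at -205 from its own start. Both Rbpj windows lie within the gene's annotated span of 53466152 to 53657362, and not at its first base. At both Hey2 matches the core is preceded by CG, which makes the longer letters CGTGGGAA that contain the core and are known as a high-affinity RBPJ site. This longer motif was searched after the Hey2 sequence had been seen. It was present in 241 of the 32851 windows, or 0.734%, and 4 windows held it at least 2 times, Hey2 among them. Neither Rbpj match had it. The windows also shared a high content of CpG dinucleotides, with 17 to 63 CpG in those of 7 genes and 5 in that of Notch4, against a median of 7 over all windows. A match describes the letters in the window and is not a measurement of binding.

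The count of the Charme transcript itself was lower in the CharmeKO pools. It reached 39.3, 10.4 and 13.96 CPM (counts scaled to library size) in the CharmeWT pools and 4.04 and 3.54 CPM in the CharmeKO pools, with a log2 fold change of -2.49 (SE 0.549, adjusted p = 0.0763, edgeR quasi-likelihood test). Counts on genes ranged from 16721055 to 21646378 per library. Genes of other tissues stood out in the CharmeKO pools. The 3 salivary gland genes summed to 0 CPM in every CharmeWT pool, 323 CPM in CharmeKO pool 1 and 24610 CPM in CharmeKO pool 2, and 3 of 4 adipose genes and 3 of 6 skeletal muscle genes were called higher. Their part in the results was not tested. The heart markers were present, with the 8 cardiomyocyte genes between 44380 and 58990 CPM in sum in all 5 pools.

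No gene of the set was called different between the genotypes. Notch1, Notch4, Jag2, Dll4 and Hes1 had mean levels in CharmeKO pools of 63.5% to 69.1% of those in CharmeWT pools. Notch2, Jag1 and Rbpj were at 78.3% to 84.0%, while Hey1 and Hey2 were at 99.6% and 99.8%. By edgeR's quasi-likelihood test, 0 of the 10 genes reached the call (a p below 0.1 after Benjamini-Hochberg adjustment across the whole table, and an FPKM averaging at least 1 in either genotype), and adjusted p ran from 0.274 to 0.999. Of all genes tested, 2.05% were called in either direction, 0.524% lower and 1.53% higher in CharmeKO. At an unadjusted p under 0.05 the count was also 0 of 10, against 8.01% of all genes lower and 10.6% higher. The likelihood ratio test of edgeR and DESeq2 each called 0 of 10 as well, against 2.35% and 3.21% of all genes called lower, and each placed 1 of the 10 under an unadjusted p of 0.05. Their median log2 fold change was -0.44, compared with 0.023 over all genes.

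**Figure D1:**
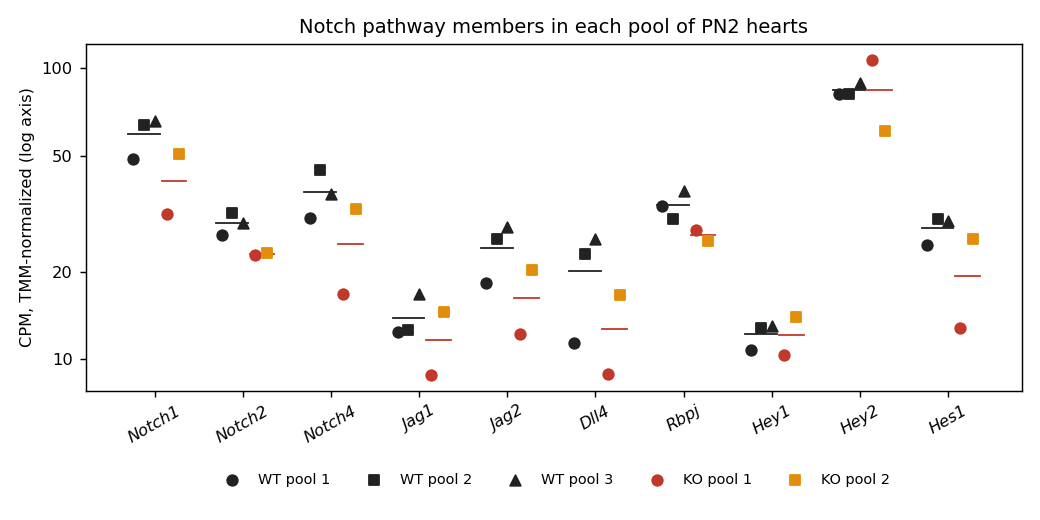
TMM-normalized CPM of the 10 Notch genes on a log axis, with 1 point for each of the 5 pools and a short line at the mean of each genotype. Notch2 and Rbpj alone have both CharmeKO pools below all CharmeWT pools, and for Notch4, Dll4 and Hes1 CharmeKO pool 1 (red) lies far below CharmeKO pool 2 (orange).

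On the scale of FPKM, counts per library size and per length, on which levels of different genes can be compared, Hey2 was the most abundant of the 10 in CharmeWT hearts at 18.3 ± 0.939 (SD, n = 3). Hes1 was next at 13.9 ± 1.51, and the pool values of these 2 genes overlapped neither each other nor those of the remaining 8. Below them came Dll4, Notch4, Notch1, Hey1, Jag2, Notch2, Rbpj and Jag1, from 5.22 to 2.39 FPKM, and each of these overlapped its neighbour in the order. In CharmeKO hearts Hey2 (18.3 ± 7.06, n = 2) and Hes1 (9.51 ± 4.54) again had the highest means. Hey1 moved from the sixth place to the third, with the other 7 genes in their former order. Lengths are the union of all annotated exons, which is long for Notch1 (14232 bases) and Rbpj (12750 bases) and short for Hes1 (2037 bases), and a long union that is only partly transcribed gives a lower FPKM. Small annotated genes overlap Notch1 (Mir6996), Notch2 (Gm42819 and Gm42820) and Jag2 (Mir6941) on the same strand, and STAR gives reads in such an overlap to neither gene.

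Notch1 (chromosome 2, 26457903 to 26516663, minus strand of GRCm38) is the receptor of endocardium and arterial endothelium. Its level was 3.42, 4.50 and 4.62 FPKM in CharmeWT pools 1 to 3 and 2.22 and 3.56 FPKM in CharmeKO pools 1 and 2. CharmeKO pool 2 lay above the lowest CharmeWT pool, so the groups overlapped. The log2 fold change was -0.53 (SE 0.241), with a 95% interval from -1.07 to 0.0082 and an adjusted p of 0.274, the lowest of the 10 genes.

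Notch4 (chromosome 17, 34564268 to 34588503, plus strand) is largely restricted to endothelial cells. It was measured at 3.81, 5.55 and 4.57 FPKM in CharmeWT pools and at 2.07 and 4.09 FPKM in CharmeKO pools. CharmeKO pool 1 was below every CharmeWT pool and CharmeKO pool 2 was within their range. Its log2 fold change of -0.58 (SE 0.292, adjusted p = 0.311) was close to that of Notch1, and the ratio of Notch1 to Notch4 FPKM stayed between 0.811 and 1.07 in all pools.

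Notch2 (chromosome 3, 98013527 to 98150361, plus strand) is a widely expressed receptor with roles in smooth muscle of the outflow vessels. Its values were 2.48, 2.96 and 2.73 FPKM in CharmeWT pools and 2.12 and 2.15 FPKM in CharmeKO pools. The 2 CharmeKO pools lay close together and both were below every CharmeWT pool. Of all genes tested, 18.2% had both CharmeKO pools below and 17.8% had both above the CharmeWT pools, so 2 of 10 genes below and 0 of 10 above is near the background. Notch2 had a log2 fold change of -0.35 (SE 0.193, adjusted p = 0.350).

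The makeup of the receptors was set out as each receptor's share of the summed FPKM of Notch1, Notch2, Notch3 and Notch4. That sum was 15.1, 20.9 and 20.2 FPKM in CharmeWT pools and 8.91 and 14.5 FPKM in CharmeKO pools. A share can be higher where the level is lower, and the mean Notch1 level in CharmeKO pools was 69.1% of that in CharmeWT pools. Notch3, the receptor of mural cells, held 35.9%, 37.7% and 41.0% in CharmeWT pools and 28.1% and 32.5% in CharmeKO pools. Its own level was 44.0, 63.8 and 67.1 CPM against 20.3 and 38.1 CPM, with a log2 fold change of -0.99 (SE 0.291, adjusted p = 0.149 by the quasi-likelihood test). At about the same fold, Notch3 was called by the likelihood ratio test (adjusted p = 0.0451), by DESeq2 (adjusted p = 0.0247) and with a replicate block (adjusted p = 0.0991). It was not called by the quasi-likelihood test with RLE normalization (adjusted p = 0.147), in its legacy form (0.160) or with low counts kept (0.168). With a length and GC correction its log2 fold change was -0.62 (adjusted p = 0.153), and with the block as well -0.54 (adjusted p = 0.325). Notch1 held 22.6%, 21.5% and 22.8% of the receptor total in CharmeWT pools and 24.9% and 24.5% in CharmeKO pools. Thus the Notch1 share was higher, and the Notch3 share lower, in both CharmeKO pools than in any CharmeWT pool. With 10 ways to assign the pools, an exact two-sided permutation test cannot give less than p = 0.1, which is the value of both differences (2.39 and -7.94 percentage points, adjusted p = 0.4 over 8 shares). The Notch2 share was 13.5% to 16.4% in CharmeWT pools, 23.7% in CharmeKO pool 1 and 14.8% in CharmeKO pool 2, and without CharmeKO pool 1 its difference was 0.139 percentage points in place of 4.603. The Notch4 share overlapped between the genotypes, at 22.6% to 26.6% against 23.3% and 28.2%.

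**Figure D2:**
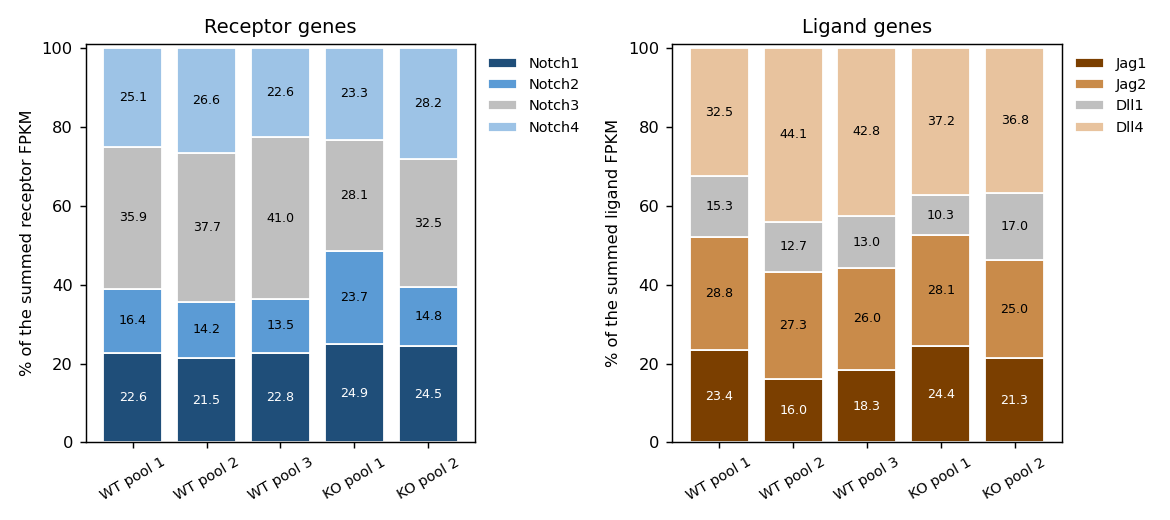
Stacked bars of each receptor's share in the summed FPKM of Notch1 to Notch4 (left) and of each ligand's share in the summed FPKM of Jag1, Jag2, Dll1 and Dll4 (right), in percent for each of the 5 pools. The Notch3 share is 35.9% to 41.0% in CharmeWT and 28.1% to 32.5% in CharmeKO pools, while the shares of all 4 ligands overlap between genotypes.

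Among the ligands, Dll4 (chromosome 2, 119325784 to 119335962, plus strand), the Delta-like ligand of arterial and sprouting endothelium, had the most negative fold change of the 10 genes. It was counted at 2.95, 5.98 and 6.72 FPKM in CharmeWT pools and 2.32 and 4.31 FPKM in CharmeKO pools. The CharmeWT pools themselves differed by more than 2-fold here, and CharmeKO pool 2 lay above CharmeWT pool 1. The log2 fold change of -0.64 (SE 0.375, 95% interval from -1.48 to 0.19, adjusted p = 0.377) was smaller than 2 standard errors.

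Jag2 (chromosome 12, 112907819 to 112929776, minus strand) is a Jagged ligand also found on vascular endothelium. It was at 2.62, 3.71 and 4.09 FPKM in CharmeWT pools and at 1.75 and 2.92 FPKM in CharmeKO pools, with a log2 fold change of -0.56 (SE 0.283, adjusted p = 0.313). Jag1 (chromosome 2, 137081456 to 137116644, minus strand), the ligand needed for arterial smooth muscle and outflow tract development, was at 2.13, 2.17 and 2.87 FPKM in CharmeWT pools and 1.52 and 2.49 FPKM in CharmeKO pools. Both ligands thus had 1 CharmeKO pool below and 1 within the CharmeWT range. For Jag1 the log2 fold change was -0.24 (SE 0.278, adjusted p = 0.656).

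Summed over Jag1, Jag2, Dll1 and Dll4, ligand levels were 9.09, 13.6 and 15.7 FPKM in CharmeWT pools and 6.23 and 11.7 FPKM in CharmeKO pools. Dll4 made up 32.5%, 44.1% and 42.8% of this in CharmeWT pools and 37.2% and 36.8% in CharmeKO pools, and Jag2 made up 28.8%, 27.3% and 26% against 28.1% and 25%. The Jag1 share was 16.0% to 23.4% against 21.3% and 24.4%. No ligand share separated the genotypes (exact permutation p from 0.3 to 1), and the ratio of Dll4 to Jag1 was 1.39 to 2.76 against 1.52 and 1.73.

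Rbpj (chromosome 5, 53466152 to 53657362, plus strand), the protein through which all 4 receptors reach DNA, was at 2.63, 2.38 and 2.96 FPKM in CharmeWT pools. In CharmeKO pools it was at 2.19 and 1.99 FPKM, both below every CharmeWT pool. The log2 fold change was -0.35 (SE 0.195, adjusted p = 0.363). Rbpj and Notch2 were the 2 genes of the set whose CharmeKO pools lay on the same side of all CharmeWT pools, and their log2 fold changes without either CharmeKO pool stayed between -0.29 and -0.41.

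The target genes differed from each other in their pattern over pools. Hes1 (chromosome 16, 30064384 to 30067796, plus strand), a repressor of the bHLH family, was at 12.2, 14.9 and 14.7 FPKM in CharmeWT pools and at 6.30 and 12.7 FPKM in CharmeKO pools. The level in CharmeKO pool 1 was below the lowest CharmeWT value by nearly 2-fold, and CharmeKO pool 2 was within the range. Hes1 had a log2 fold change of -0.54 (SE 0.287, adjusted p = 0.338).

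Hey1 (chromosome 3, 8663359 to 8667256, minus strand), a related repressor of arterial endothelium and atrial myocardium, was at 3.30, 3.92 and 3.98 FPKM in CharmeWT pools and 3.17 and 4.27 FPKM in CharmeKO pools. The 2 CharmeKO pools lay on either side of the CharmeWT pools, just outside their range. The log2 fold change was 0.00090 (SE 0.241, adjusted p = 0.999), with a 95% interval from -0.54 to 0.54 that still allows a change of the size estimated for Notch1. Its sign flipped in 3 other fits of the same pools, by likelihood ratio, by the legacy quasi-likelihood form and with low counts kept.

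Hey2 (chromosome 10, 30832359 to 30842801, minus strand), whose promoter carries both CGTGGGAA matches, was nearly constant in CharmeWT pools at 17.8, 17.7 and 19.4 FPKM. In CharmeKO pool 1 it was at 23.3 FPKM, above every CharmeWT pool, and in CharmeKO pool 2 it was at 13.3 FPKM, below every one. Relative to the CharmeWT mean these are log2 differences of 0.35 and -0.46. The log2 fold change of -0.0045 (SE 0.232, 95% interval from -0.52 to 0.51, adjusted p = 0.995) therefore averages 2 pools that differ in opposite directions. The ratio of Hey2 to Hey1 was 5.39, 4.52 and 4.87 in CharmeWT pools and 7.34 and 3.11 in CharmeKO pools, and the ratio of Hes1 to Hey2 was 0.683, 0.839 and 0.757 against 0.271 and 0.958. In neither ratio were the CharmeKO pools on one side of the CharmeWT pools (exact permutation p = 0.9 and 0.6).

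**Figure D3:**
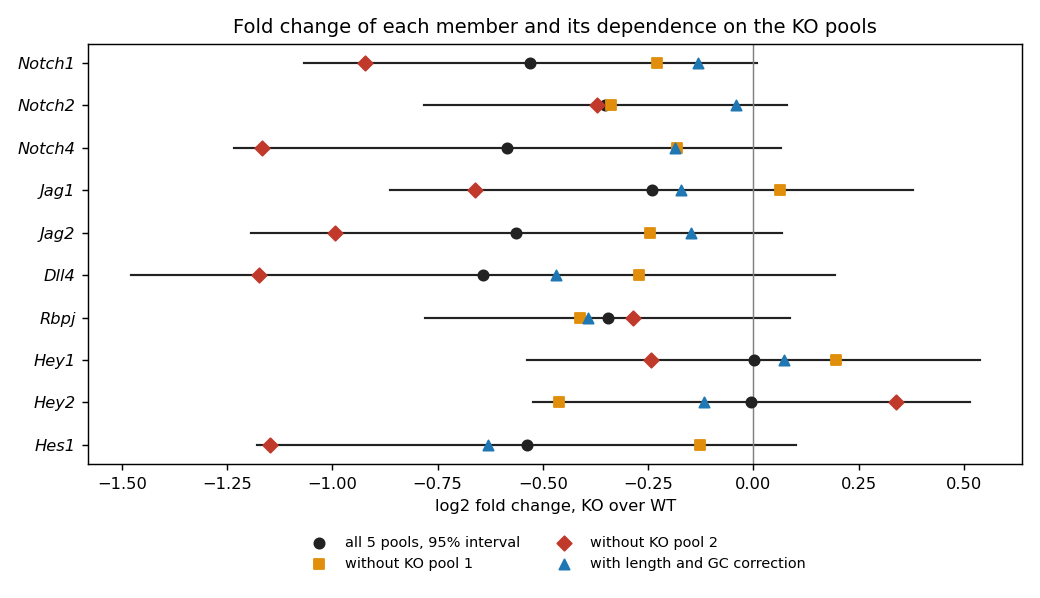
Log2 fold change of CharmeKO over CharmeWT for the 10 genes, with all 5 pools and its 95% interval (black), without CharmeKO pool 1 (orange), without CharmeKO pool 2 (red) and with the length and GC correction (blue). All 10 intervals include 0, and for Notch1, Notch4, Jag2, Dll4 and Hes1 the value is -0.92 or lower without CharmeKO pool 2 and -0.27 or higher without CharmeKO pool 1.

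The 2 CharmeKO pools were compared directly, since much of the difference came from 1 of them. Relative to the CharmeWT mean, the log2 difference in CharmeKO pool 1 was -0.92 for Notch1, -1.16 for Notch4, -0.99 for Jag2, -1.17 for Dll4 and -1.14 for Hes1. In CharmeKO pool 2 the same genes lay between -0.13 and -0.28. The ratio of pool 1 to pool 2 was 0.509 for Notch4, 0.541 for Dll4 and 0.497 for Hes1, and 7.99%, 9.60% and 7.48% of all genes had a ratio as low. Hey2 was at the other end, with a ratio of 1.75 that 7.95% of genes matched or exceeded. Notch2 (0.984) was near equality.

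Without CharmeKO pool 2, 5 of the 10 genes were called and all were lower: Hes1 at -1.15 (adjusted p = 0.00760), Notch4 at -1.17 (adjusted p = 0.00909), Notch1 at -0.92 (adjusted p = 0.0142), Jag2 at -0.99 and Dll4 at -1.18. In this fit the lone CharmeKO pool is assumed to vary like the CharmeWT pools, and 15.6% of 14536 genes were called lower and 16.1% higher. Without CharmeKO pool 1, 0 of the 10 were called (1 at an unadjusted p under 0.05), against 4.33% of 14757 genes called in either direction, and the log2 fold changes ran from -0.46 for Hey2 to 0.20 for Hey1. Those of Notch1, Notch4, Jag2, Dll4 and Hes1 were then between -0.13 and -0.27.

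CharmeKO pool 1 also differed from the CharmeWT mean by the base composition of genes, a trend not set out for single CharmeWT pools. When all genes were split into 4 equal bins by the GC content of their longest transcript, the median log2 difference of CharmeKO pool 1 from the CharmeWT mean went from 0.466 in the bin lowest in GC through 0.107 and -0.222 to -0.496 in the highest. In CharmeKO pool 2 the 4 medians were between -0.0262 and 0.0326. Notch1 (57.1% GC), Notch4 (61.2%), Jag2 (61.9%) and Dll4 (55.9%) belong to the highest bin, and their log2 differences in CharmeKO pool 1 were more negative than its median. That bin spans 54.5% to 84.2% GC, and the part of a trend within the bin was not tested. Hes1 (50.7%) is in the third bin and lay further below its median, at -1.14 against -0.222. Hey2 (45.9%) is in the second bin, above its median, and Jag1 (48.8%), in the same bin, lay below it at -0.65 against 0.107. Rbpj (43.7%) is in the lowest bin, with -0.28 against a median of 0.466.

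When each pool was corrected for its trends on length and GC, the log2 fold changes of the receptors were nearer to 0, at -0.13 for Notch1, -0.042 for Notch2 and -0.19 for Notch4. Jag2 was then at -0.15 and Dll4 at -0.47. Those of Hes1 (-0.63, adjusted p = 0.284) and Rbpj (-0.39, adjusted p = 0.248) did not move toward 0. The median of the 10 genes was -0.16 after the correction, 0 of them were called, and 2.49% of all genes were called in either direction.

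**Figure D4:**
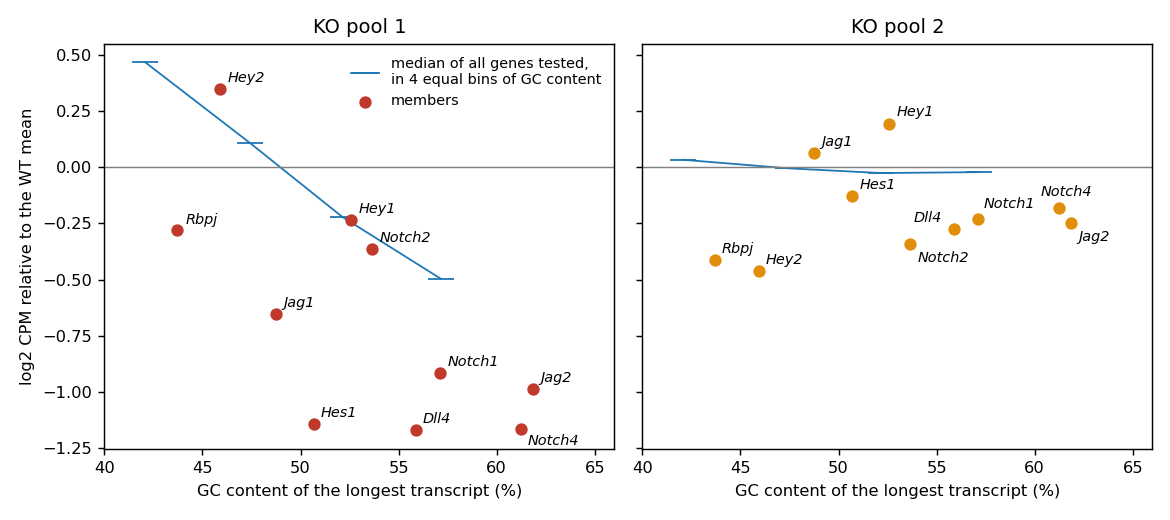
Log2 CPM of each CharmeKO pool relative to the CharmeWT mean, plotted against the GC content of a gene's longest transcript in percent, with 1 panel per pool, the medians of the 4 GC bins of all genes as a line and the 10 Notch genes as named points. The line of CharmeKO pool 1 runs from 0.466 down to -0.496 and that of pool 2 stays within 0.0326 of 0, with 9 of the 10 genes below the pool 1 median of their bin and Hey2 above it.

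Most of these genes are known from endothelial and endocardial cells, so markers of those cells were set beside them. The 12 endothelial markers summed to 1404, 1805 and 1632 CPM in CharmeWT pools and 1169 and 1480 CPM in CharmeKO pools. None was at 0 in any pool, 0 of 12 were called by the quasi-likelihood test (against 2.05% of all genes), 4 were lower and 1 higher at an unadjusted p under 0.05 (against 8.01% and 10.6% of all genes), and their median log2 fold change was -0.38. The 2 most abundant by CPM were Cdh5, at 267, 376 and 322 CPM in CharmeWT pools and 193 and 296 CPM in CharmeKO pools, and Eng, at 206, 317 and 260 against 138 and 268 CPM. Both had CharmeKO pool 1 below and CharmeKO pool 2 within the CharmeWT range, as did Notch1, Notch4, Jag1, Jag2, Dll4 and Hes1. Of the 12 markers, 10 had a negative and 2 a positive fold change, against 7165 and 7715 of all genes tested. The 2 were Pecam1, at 199, 231 and 221 against 240 and 217 CPM, and Emcn, at 67.8, 61.6 and 58.6 against 112 and 67.4 CPM. The 7 arterial markers summed to 183 to 256 CPM in CharmeWT pools and to 144 and 207 CPM in CharmeKO pools, the 6 endocardial markers to 190 to 236 against 164 and 221 CPM, and the 8 mural markers to 1281 to 2250 against 1552 and 1725 CPM. The most abundant mural marker was Acta2, at 503, 1538 and 540 against 949 and 1215 CPM. The mural median log2 fold change was -0.52, with 6 negative, 2 positive and 0 called. At an unadjusted p under 0.05, 3 mural markers were lower and 0 higher. For 4 of them both CharmeKO pools lay below every CharmeWT pool, and for 0 above (against 18.2% and 17.8% of all genes). In whole hearts, fewer cells of a type and less RNA per cell cannot be told apart. In CharmeKO pool 1, whose median levels fell with GC content, Eng (57.4% GC) and Cdh5 (52.2%) had log2 differences of -0.91 and -0.74. Those of Pecam1 (50.2%) and Emcn (40.7%) were 0.14 and 0.84. The part of the GC trend in these sums was not tested.

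Relative to the summed endothelial markers, a scale added after the data had been seen, the mean log2 differences of Notch1 (-0.27), Notch4 (-0.37), Jag2 (-0.31), Dll4 (-0.35) and Hes1 (-0.34) were nearer to 0 than on the CPM scale. They too came mostly from CharmeKO pool 1, as for Hes1 with -0.68 in pool 1 and -0.0048 in pool 2. Notch1 (-0.45 and -0.10) was the gene of the set with both CharmeKO pools below every CharmeWT pool on this scale, and Hey1 (0.22 and 0.32) the one with both above. The mean of Hey2 (0.23) joined 0.80 in pool 1 with -0.34 in pool 2, which lay on opposite sides of the CharmeWT pools. The means of Notch2 (-0.062), Rbpj (-0.053) and Jag1 (0.0060) likewise joined pools of opposite sign, such as 0.18 and -0.29 for Rbpj. The exact permutation test, whose smallest p is 0.1, gave an adjusted p of at least 0.5 for each of the 10 genes.

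The other genes of the pathway were taken as 61 listed genes in 8 roles, of which 57 were tested and Dll3, Dlk2, Dner and Hes5 had too few counts. By the quasi-likelihood test 1 was called lower and 0 higher (0.524% and 1.53% of all genes), while 9 lay lower and 2 higher at an unadjusted p under 0.05 (8.01% and 10.6% of all genes), and the median log2 fold change of the 57 was -0.25. The called gene was Mib2, an E3 ligase that helps ligands to be taken up by the cell that presents them. Mib2 had 8.64, 6.94 and 8.41 FPKM in CharmeWT pools and 4.24 and 4.63 FPKM in CharmeKO pools. Both CharmeKO pools were below the CharmeWT range and close to each other, and the log2 fold change was -0.85 (SE 0.199, adjusted p = 0.0917). Mib2 was also called by the likelihood ratio test (adjusted p = 0.013) and DESeq2 (adjusted p = 0.00854). The quasi-likelihood test called it with RLE normalization (adjusted p = 0.0903), in its legacy form (0.0943) and with low counts kept (0.0994). The call was lost without any 1 of the 3 CharmeWT pools (log2 fold change from -0.79 to -0.94, adjusted p from 0.147 to 0.448). Those fits called 2, 187 and 0 genes in all, without CharmeWT pools 1, 2 and 3. It was also lost in the fit blocked by replicate number (-0.80, adjusted p = 0.177) and after correction for length and GC (-0.47, adjusted p = 0.284). Mib1, its relative, was at 5.07 FPKM in CharmeWT and 6.003 FPKM in CharmeKO pools on average (log2 fold change 0.24, adjusted p = 0.523).

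Around the receptors, the 10 genes of cleavage had 0 called, and their median was -0.28 on the log2 scale. Adam10, which cuts the receptor outside the membrane, was at 20.6 and 16.6 FPKM (adjusted p = 0.371), and Psenen, a subunit of gamma-secretase, at 30.7 and 33.9 FPKM (adjusted p = 0.699). Of the 5 glycosylation genes, the Fringe enzymes Rfng and Mfng, which tune the response to ligands, were at 7.75 and 4.72 FPKM (log2 fold change -0.71, adjusted p = 0.197) and at 6.58 and 4.80 FPKM (adjusted p = 0.420). The 8 genes of receptor turnover, with Dtx3 and Numb the most abundant, had a median of -0.13 and 0 called.

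In the nucleus, the 7 partners of the activating complex lay at a median of -0.41 on the log2 scale, and 4 had both CharmeKO pools below every CharmeWT pool, against 18.2% of all genes. None was called, and the most abundant, Kat2b (17.5 and 18.0 FPKM) and Snw1 (11.7 and 13.5 FPKM), were not among the 4. The 10 corepressors that act with RBPJ in the absence of Notch had a median of -0.28, with 0 called, and the most abundant were Ctbp1 (52.3 and 42.1 FPKM) and Hdac1 (16.8 and 20.5 FPKM). Heyl, the third Hey gene and a target known from mural cells, was picked out after its values had been seen and was at 7.70 and 4.52 FPKM (log2 fold change -0.76, adjusted p = 0.218).

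Of the 9 other target genes tested, 8 had a negative and 1 a positive fold change, against 7165 negative and 7715 positive of the 14880 genes tested, with a median of -0.35 and 0 called. The most abundant were Ccnd1, a cyclin of the G1 phase, with a log2 fold change of -0.52 (adjusted p = 0.316), and Hes6 at 22.8 and 19.4 FPKM (adjusted p = 0.520). Among ligand-like genes, Dlk1, a ligand-like membrane protein, was at 24.1 ± 4.92 FPKM in CharmeWT pools and 53.1 ± 46.6 FPKM in CharmeKO pools (adjusted p = 0.231). Its excess came from CharmeKO pool 2, with log2 differences of -0.26 in pool 1 and 1.84 in pool 2. Mfap2, a microfibril protein that can bind Notch ligands and receptors, was at 49.8 and 38.0 FPKM (adjusted p = 0.411).

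**Figure D5:**
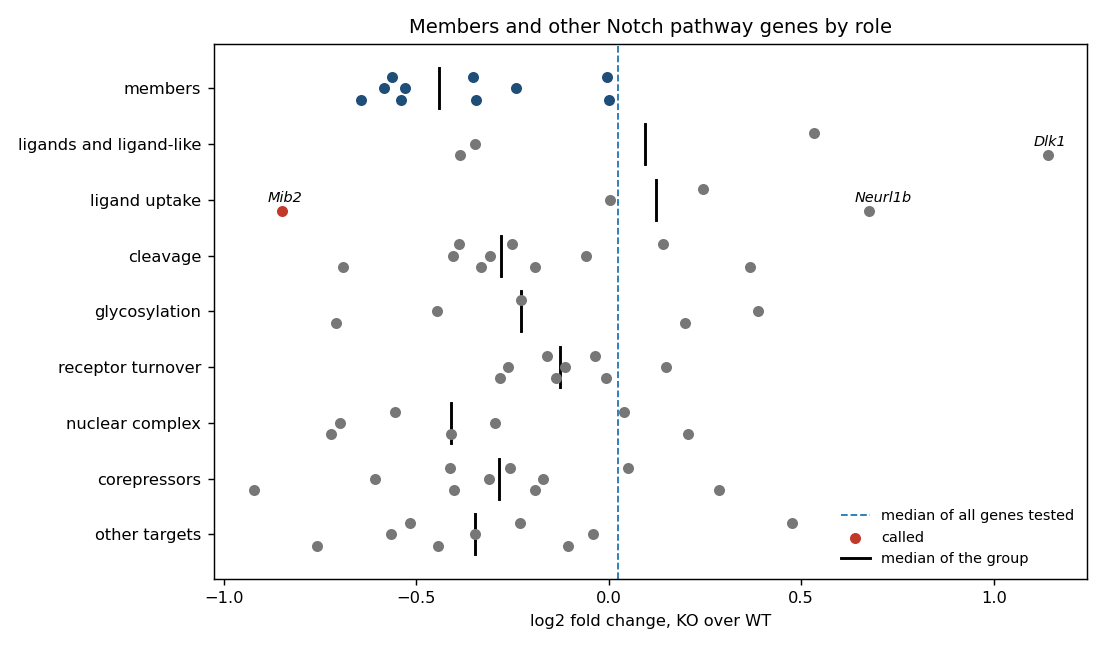
Log2 fold change of CharmeKO over CharmeWT for the 10 Notch genes (members, blue) and the 57 other pathway genes tested (grey), grouped by role, with a vertical bar at each group's median and called genes in red. Medians of the roles run from -0.41 for the nuclear complex to 0.12 for ligand uptake, and Mib2 is the called gene.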

How the data were processed

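The authors trimmed reads with cutadapt and Trimmomatic, dropped those under 35 nucleotides, aligned the rest to GRCm38 with STAR and counted reads per gene of Ensembl release 87 on the strand of a stranded polyA library. The deposited counts are raw whole numbers for 49671 genes and were used as they stand. A deposited FPKM table was not used. FPKM was computed from the counts, TMM library sizes and union exon lengths of GENCODE M21, which covers 49411 of the genes. A length of 1 kb stood in for 23 of the 14880 tested genes. Genes reaching 10 counts in 2 or more pools were tested with edgeR 4.0.16 (R 4.3.3), quasi-likelihood test, Benjamini-Hochberg adjustment, a fit of genotype on all 5 pools. Standard errors are the absolute log2 fold change divided by the root of F. Calls required an adjusted p below 0.1 and an FPKM averaging 1 or more in either genotype. The filter, TMM and thresholds are those of the study's methods, whose likelihood ratio test was an alternative, as were DESeq2 1.42.0, the legacy quasi-likelihood form, RLE, no filter, the replicate number as a block, splines of 4 degrees of freedom on length and GC, and leaving out each pool. Shares and ratios were tested by exact permutation over pools. All 10 genes are named, with the called genes and the 2 most abundant of each pathway role. The genes and lists were chosen with earlier results of these data known. The test was also run on simulated counts with larger fold changes than those of the 10 genes and no GC trend. That run does not measure its power for these genes. The reads carry no molecular identifiers.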

Additional observations from a re-analysis of the deposited data

How the results depend on the processing

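No setting with both CharmeKO pools called any of the 10 Notch genes. Leaving out 1 pool gave 0 to 5 of them, the 5 without CharmeKO pool 2. Of 14880 genes, 305 were called, against 933 by the likelihood ratio test, 1122 by DESeq2, 43 with the block and the length and GC correction, and 0 to 4607 without 1 pool (0 without CharmeWT pool 3, 2 without CharmeWT pool 1, 639 without CharmeKO pool 1, 4607 without CharmeKO pool 2). Of the other pathway genes, 1 was called, against 2 by the likelihood ratio test, 3 by DESeq2, 0 with the block and correction, and 0 to 25 without 1 pool. The sign of Hey1 turned under the likelihood ratio test (-0.00030), the legacy form (-0.0014), no filter (-0.028), without CharmeWT pool 1 (-0.081) and without CharmeKO pool 2 (-0.24), and ranged up to 0.20 when 1 pool was left out. Hey2 turned without CharmeWT pool 3 (0.040), without CharmeKO pool 2 (0.34) and relative to the endothelial markers (0.23), with -0.46 to 0.34 when 1 pool was left out, and Jag1 without CharmeKO pool 1 (0.063, against -0.24 with all pools and -0.66 without CharmeKO pool 2) and relative to those markers (0.0060). The causes were not tested.

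Nothing in the labels says that equal replicate numbers pair the pools, and the 2 shared numbers gave correlations of deviations of 0.18 and 0.116. With 2 CharmeKO pools the deviations of one mirror those of the other, so the unmatched pairs gave -0.18 and -0.116. These correlations cannot decide whether the pools pair. In the fit with a replicate block, 210 genes were called in place of 305, 0 of the 10 Notch genes and 1 other pathway gene, and the median of the 10 genes was -0.38 (-0.11 with the correction as well).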
